A study of Rattus norvegicus with 24 samples.

Results

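The genes described here make, package, take up and break down GABA, the main inhibitory transmitter of the brain, or mark the interneurons that release it. They are Gad1, Gad2, Slc32a1, Slc6a11, Slc6a13, Abat, Pvalb, Sst and Vip, chosen as the probes whose gene name in the array files is one of these 9 symbols. That gave 11 probes, 3 of them for Gad1, of 41012 probes and 35526 genes or unnamed features on the array. RNA came from male Wistar rats killed 40 min after 1 intraperitoneal injection of MK-801 at 0.16 mg/kg (high dose) or 0.08 mg/kg (low dose), or of saline. MK-801, also called dizocilpine, blocks the open channel of the NMDA type of glutamate receptor. The design text counts 9 rats, 3 of them given saline, and states an age of 10 weeks, while the sample labels state 9 weeks. Each of 6 brain regions (cortex, hippocampus, amygdala, ventral striatum, hypothalamus and midbrain) was measured at each dose on 2 arrays of opposite dye, so there were 24 arrays. Every array carried RNA of treated rats in one colour and RNA of saline rats of the same region in the other. The sources used here do not say how many rats an extract held, so a dye pair was counted as 1 replicate, and the p-values below measure spread between regions and not between rats. Per the design text each brain was divided into its regions, so the 6 regions used as replicates come from the same few rats and are not independent animals. The array titles put the word Control before saline, high and low alike, without saying what it stands for.

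GABA is made from glutamate by 2 glutamate decarboxylases: GAD67, encoded by Gad1, which supplies much of the cell's GABA, and GAD65, encoded by Gad2, which lies at nerve terminals. The vesicular transporter encoded by Slc32a1 loads GABA into synaptic vesicles. After release it is cleared by plasma membrane transporters, among them GAT3 of astrocytes (Slc6a11) and GAT2 (Slc6a13). In mice, GAT2 in the brain has been found mainly in the leptomeninges and around blood vessels and in little of the neuronal tissue. GABA transaminase (Abat) starts its breakdown in mitochondria. The calcium-binding protein parvalbumin (Pvalb) and the peptides somatostatin (Sst) and vasoactive intestinal peptide (Vip) mark 3 largely separate interneuron classes of the cortex. In other regions the same genes are also used by cells that are not interneurons, such as the Vip neurons of the suprachiasmatic nucleus.

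The probe letters below show which stretch of each transcript carried the signal, since the 3 Gad1 probes did not give the same regional pattern. They are read 5′ to 3′ on the transcript's strand, from the array files. The Gad1 probes are A_44_P243102, at chr3:52709400-52709459 (rn3 build, plus strand), and A_44_P115461, at chr3:52711459-52713893, where 60 bases of probe cover 2435 bases of the genome. Gad2 was read at chr17:96332395-96332454 (plus strand) and Slc6a11 at chr4:150440112-150440919 (plus strand), where 60 bases cover 808. Abat was read at chr10:7047983-7048042 (minus strand), Slc6a13 at chr4:158016763-158016822 (plus strand) and Sst at chr11:79183616-79183675 (plus strand). For Slc6a13 the first 30 bases are shown. For Sst the stretch shown runs through 11 codons to the stop codon of the somatostatin precursor, in capitals.
Gad1 A_44_P243102: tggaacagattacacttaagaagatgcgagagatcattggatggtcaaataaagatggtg
Gad1 A_44_P115461: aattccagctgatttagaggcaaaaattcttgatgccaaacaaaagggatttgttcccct
Gad2: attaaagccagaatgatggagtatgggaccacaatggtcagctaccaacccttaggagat
Slc6a11: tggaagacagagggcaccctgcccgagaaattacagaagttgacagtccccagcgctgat
Slc6a13: cacagaactggagtctaactgctagggacg
Abat: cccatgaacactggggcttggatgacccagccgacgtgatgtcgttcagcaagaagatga
Sst: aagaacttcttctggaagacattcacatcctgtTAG
The third Gad1 probe, A_44_P536310, is the brightest and stands for the gene below. It lies at chr3:52725286-52725345 (plus strand). Those of Slc32a1 (chr3:149252692-149252751, plus), Pvalb (chr7:116148929-116148988, minus) and Vip (chr1:36372337-36372396, plus) are named only. Exons and untranslated regions are not stated, since no annotation of the rn3 build was used here.

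Signal differed between arrays: the median net signal ran from 74.47 to 406.6 intensity units, and between 56.8% and 89.7% of spots were well above background. Most members were bright. All 11 probes were well above background in saline RNA and in treated RNA on 24 of 24 arrays, except Slc6a11, on 23. Marker genes were used to check the regional labels against saline RNA. Striatal projection neuron markers stood above the mean of the other 5 regions in ventral striatum (14 of 14 genes, median difference 4.00 on the log2 scale), midbrain markers in midbrain (10 of 11, 2.25), cortical markers in cortex (10 of 11, 1.74) and hippocampal markers in hippocampus (7 of 9, 0.88). The tissue labelled hypothalamus was marked more by thalamic genes (10 of 10 higher, median 2.29) than by hypothalamic ones (7 of 14 higher, median 0.03), so it is called the hypothalamus piece here. No list specific to the amygdala was used, and that tissue had the highest levels of meningeal markers (15 of 15 higher, median 1.60) and of choroid plexus and ependymal markers (11 of 11 higher, median 1.08).

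In saline rats the genes of GABA synthesis and vesicle loading were highest in ventral striatum, a region whose projection neurons are themselves GABAergic. Levels are log2 intensities of 1 probe after normalisation, given as mean ± SD over the 4 saline channels of a region. They are a description without a test, since the 4 channels may hold 1 extract and each region lay on 1 slide. Gad2 stood at 11.77 ± 0.05 in ventral striatum and at 11.23 ± 0.23 in midbrain, and these ranges did not overlap. It followed at 10.45 ± 0.20 in cortex and 10.41 ± 0.12 in amygdala, which overlapped, and was lowest in hippocampus (9.66 ± 0.31) and in the hypothalamus piece (9.62 ± 0.20). From the highest to the lowest region that is a 4.44-fold difference. Slc32a1 had the same top pair, at 14.36 ± 0.10 in ventral striatum (n = 3 channels) and 13.90 ± 0.25 in midbrain (n = 3). The hypothalamus piece followed at 13.45 ± 0.11 and cortex was lowest at 12.56 ± 0.18, 3.48-fold below ventral striatum. Ranges of neighbours overlapped only among hippocampus, amygdala and cortex. The 5 arrays left out as outliers for Slc32a1 all carried saline RNA in Cy5. Its levels in hippocampus (n = 2), amygdala (n = 3), ventral striatum and midbrain thus lean to Cy3, while those of cortex and the hypothalamus piece are balanced.

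Gad1 was highest in ventral striatum with each of its 3 probes, but the size of the regional difference depended on the probe. The brightest probe gave 11.34 ± 0.62 in ventral striatum and 10.21 ± 0.88 in cortex, a 2.19-fold range. Here 1 array per region lay far below the other 3 in both (10.43 against 11.54 or more in ventral striatum, 8.91 against 10.55 or more in cortex), and ventral striatum and midbrain (10.95 ± 0.37) overlapped. Probes A_44_P115461 and A_44_P243102 separated ventral striatum from midbrain without overlap, at 10.13 ± 0.29 against 9.26 ± 0.30 and at 9.10 ± 0.24 against 8.51 ± 0.27. Their full ranges were 4.11-fold and 3.20-fold. The lowest region was cortex with the brightest probe, the hypothalamus piece with A_44_P115461 and hippocampus with A_44_P243102.

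The transporters and the transaminase followed other patterns. Slc6a11, the astrocyte GABA transporter, varied least of the 9 genes, from 7.91 ± 0.21 in midbrain to 7.12 ± 0.24 in amygdala (1.73-fold), and every pair of neighbouring regions overlapped. Its levels were also the lowest of the 9 genes, where the background offset of 50 narrows fold differences most. The part of the offset in its range was not tested. Slc6a13 was highest in amygdala, at 9.97 ± 0.18, where its 4 channels lay between 9.86 and 10.24. No channel of another region exceeded 9.09, and the other 5 regions overlapped in order from the hypothalamus piece (8.82 ± 0.08) to ventral striatum (8.23 ± 0.08). The amygdala is also where the meningeal marker levels were highest, their sum being 214491 intensity units, against 116799 in cortex and 47953 to 92560 in the other 4 regions. Whether that tissue sets the regional order of Slc6a13 was not tested. Abat was highest in the hypothalamus piece (10.82 ± 0.06), midbrain (10.51 ± 0.38) and ventral striatum (10.37 ± 0.10), which overlapped as neighbours, and those stood apart from cortex (9.56 ± 0.13), amygdala (9.51 ± 0.04) and hippocampus (8.94 ± 0.58).

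Of the 3 interneuron markers, Pvalb was highest in midbrain and Sst and Vip in cortex, and all 3 varied more than the synthesis genes. Pvalb was highest in midbrain (13.87 ± 0.08) and the hypothalamus piece (13.53 ± 0.25), then cortex (12.67 ± 0.68), hippocampus (11.48 ± 0.76), ventral striatum (11.36 ± 0.19) and amygdala (10.54 ± 0.27), a 10.1-fold range. Midbrain did not overlap the hypothalamus piece, nor ventral striatum the amygdala. Sst was highest in cortex (14.74 ± 0.06), amygdala (14.55 ± 0.03), ventral striatum (14.48 ± 0.24) and hippocampus (14.11 ± 0.29). Cortex did not overlap the amygdala, while the next pairs did. Midbrain (12.64 ± 0.12) lay a gap of 1.47 below hippocampus, and the hypothalamus piece (12.27 ± 0.26) was lowest, without overlap, for a 5.54-fold range. Vip had the widest range of the 9, 14.4-fold. It was highest in cortex (13.85 ± 0.42), then the hypothalamus piece (13.36 ± 0.77), amygdala (13.18 ± 0.09) and hippocampus (12.30 ± 0.86), with ventral striatum (10.00 ± 0.22) and midbrain (10.00 ± 0.40) 2.30 below hippocampus. Neighbours among the top 3 regions of Vip overlapped, as did its lowest pair, and hippocampus overlapped neither neighbour.

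**Figure D1:**
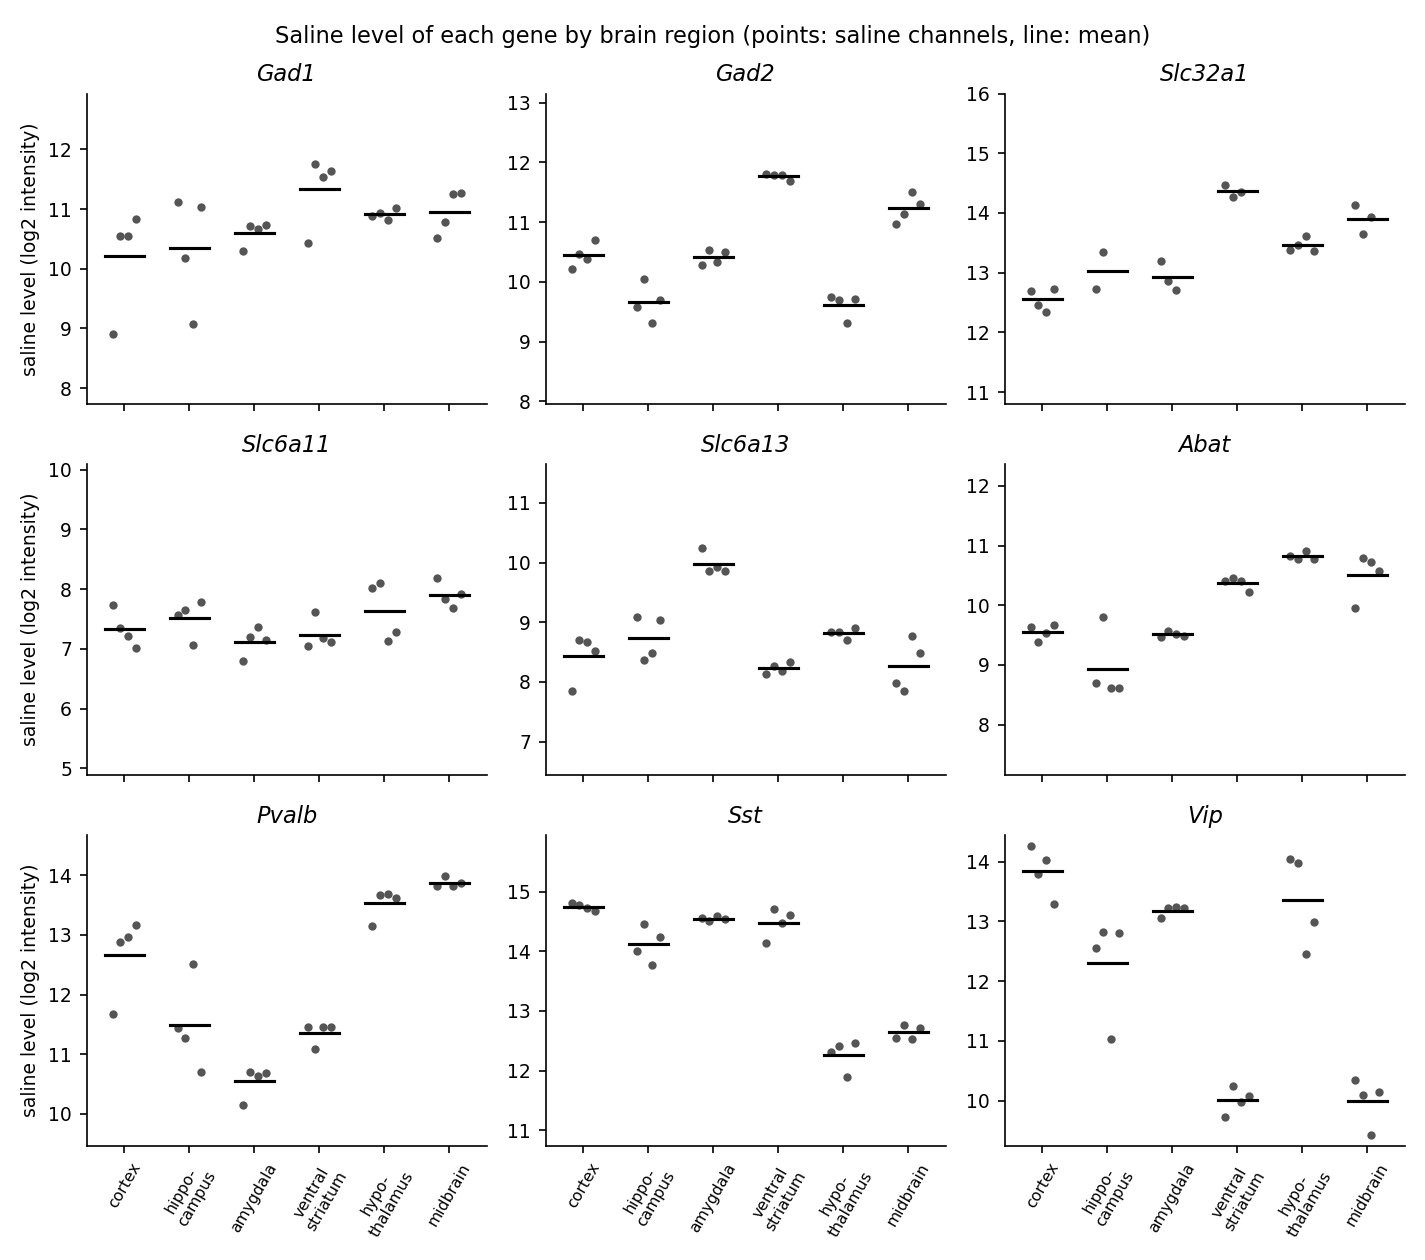
Saline level of each gene (y axis, log2 intensity of its probe, each panel spanning the same number of log2 units) in 6 brain regions (x axis). Points are saline channels, 4 per region unless left out as outliers, and lines are their means. Gad2 and Slc32a1 peak in ventral striatum, at 11.77 and 14.36, Slc6a13 in amygdala at 9.97, Pvalb in midbrain at 13.87, and Sst and Vip in cortex at 14.74 and 13.85.

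Across the 6 regions the mean levels of the brightest Gad1 probe and Slc32a1 had a Pearson correlation of 0.95, against 0.63 with Gad2. This contrast is that of 1 probe, and no correlation was taken for A_44_P115461 and A_44_P243102. Both ran from ventral striatum through midbrain and cortex to amygdala, the order of Gad2 and not of Slc32a1. Pvalb and Slc6a11 reached 0.85, and Pvalb and Sst ran opposite to each other (-0.79), as did Slc32a1 and Vip (-0.88). These are descriptions over 6 regions that share slide and dissection. Among 2220 named genes that varied over regions, those most like the brightest Gad1 probe were Ebf1 (0.985), Zfp503 (0.983) and Bmp2 (0.977). Those most like Slc32a1 were Slc5a7 (0.992), Zfp385d (0.986) and Zfp503 (0.968), and those most like Gad2 were Zswim6 (0.985), Ephb1 (0.969) and Supt16h (0.961). Slc5a7 encodes the choline transporter of cholinergic neurons. Slc6a11 was most like the neurofilament genes Nefl (0.97) and Nefh (0.969) and Laptm4b (0.969). Pvalb was most like the kinase gene Stk39 (0.984), the sodium channel gene Scn1a (0.973) and the potassium channel subunit Kcnab3 (0.952). For Sst the nearest were Kcnv1 (0.994), Syt16 (0.986) and Arf3 (0.985), for Vip Kcnk4 (0.956), Clec11a (0.954) and Lingo1 (0.939), for Abat Adarb1 (0.983), Ass1 (0.972) and Lamb3 (0.97), and for Slc6a13 Steap1 (0.981), Ccdc33 (0.978) and Clic6 (0.973), a chloride channel protein of the choroid plexus. With 6 points such values are easily reached: 37 genes had 0.95 or more with Sst, and 2 to 8 with each of the others.

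After MK-801, 1 of the 9 genes passed the test at 1 dose. Slc6a13 fell at the low dose, by 0.31 on the log2 scale. The other 8 genes stayed within 0.11 of saline as a mean over regions at both doses, and no GABA synthesis, vesicle loading or interneuron gene passed. Each dose was tested with limma against 0 over the 6 regional values, and p-values were adjusted with the Benjamini-Hochberg method over all genes tested, with 0.05 as the threshold. At the high dose 0 of 9 members passed, where 2.1% of 23731 genes did, 1.14% higher and 0.965% lower (1 of 9 at an unadjusted p under 0.05, against 11.9% of all genes). At the low dose 1 of 9 passed, where 2.5% of 24363 genes did, 1.24% higher and 1.26% lower (1 of 9 at an unadjusted p under 0.05, against 13.1% of all genes). Between the doses 0 of 9 passed, where 1.52% of 23308 genes did, 0.888% higher and 0.631% lower (3 of 9 at an unadjusted p under 0.05, against 10.9% of all genes). The median over the 9 members was -0.02 at the high dose, 0.02 at the low dose and 0.02 for high minus low, and over all genes tested -0.0007, 0.0019 and -0.0031. The 95% confidence intervals of the 9 genes lay within -0.36 to 0.20 at the high dose and within -0.44 to 0.14 at the low dose. Like the p-values, they measure spread between regions of the same few rats, so they do not bound the change across rats. In bulk tissue such as this, fewer cells of a type and less RNA per cell cannot be told apart.

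**Figure D2:**
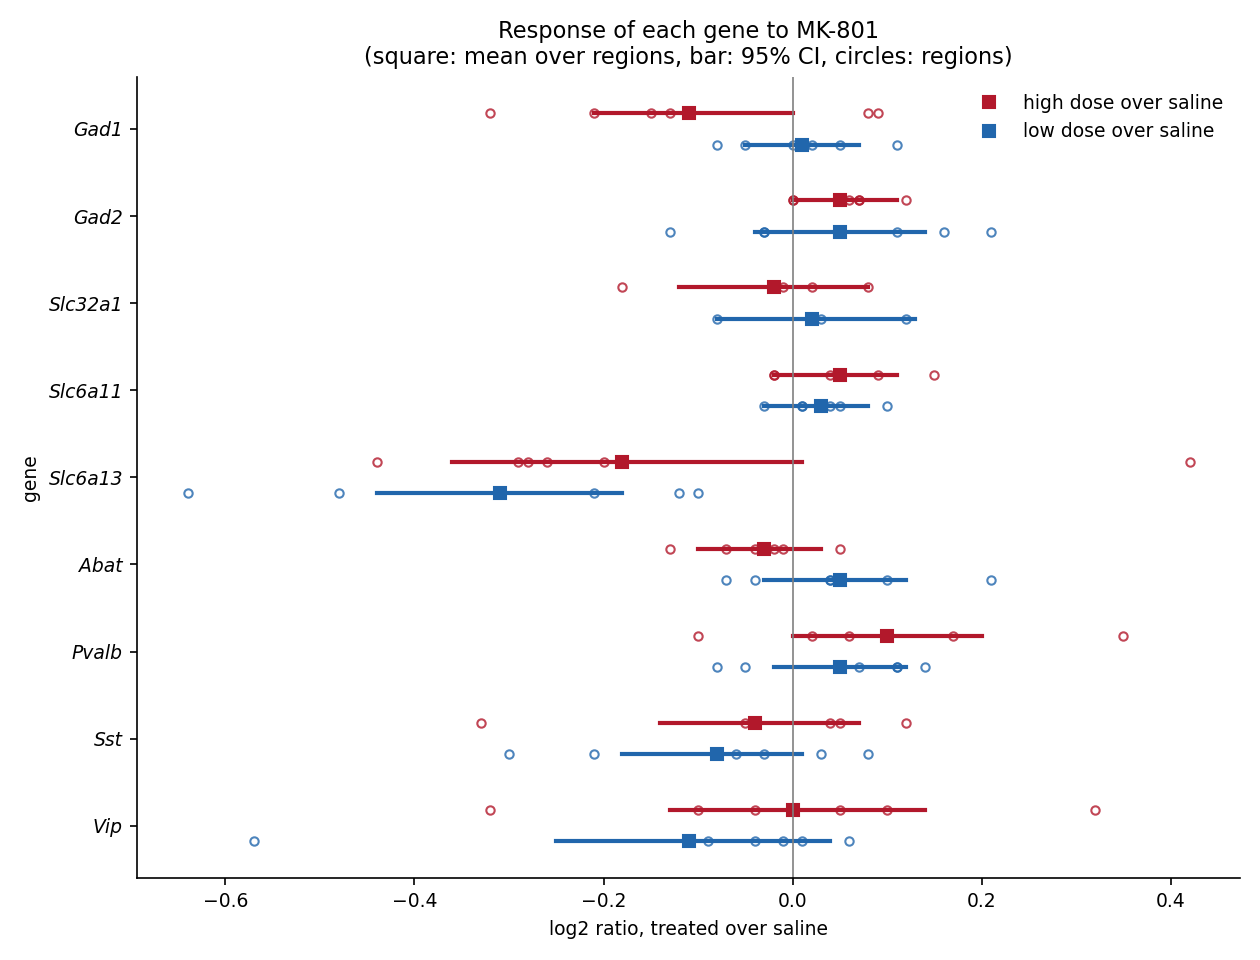
Log2 ratio of treated over saline RNA (x axis) for each gene (y axis) at the high dose (red) and the low dose (blue). Squares are means over regions, bars 95% confidence intervals of the limma fit, and open circles regions (n = 6, for Slc32a1 4 high-dose and 3 low-dose regions). The bar of Slc6a13 at the low dose, from -0.44 to -0.18, is the one that passed the threshold.

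Slc6a13 encodes GAT2, which carries GABA and also taurine and betaine. Single arrays are given with the treated RNA in Cy5 first and in Cy3 second. At the high dose the log2 ratios to saline were -0.33 and -0.19 in cortex, -0.64 and -0.24 in hippocampus, and -0.16 and -0.25 in amygdala. They were -0.31 and -0.26 in ventral striatum, -0.25 and -0.33 in the hypothalamus piece, and 0.43 and 0.41 in midbrain. Of these 6 pairs, 5 had both arrays below 0, and midbrain stood alone above it with both. At the low dose the ratios were -0.50 and -0.77 in cortex, -0.48 and -0.48 in hippocampus, and -0.17 and -0.24 in amygdala. They were -0.13 and -0.11 in ventral striatum, -0.02 and -0.17 in the hypothalamus piece, and -0.33 and -0.29 in midbrain. Both arrays were below 0 in each of these 6 pairs, with cortex and hippocampus furthest. The gene had no mean dye effect (0.00 over 12 pairs), and the 2 arrays of a pair had a median SD of 0.05.

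As a mean over 6 regions, Slc6a13 at the low dose was -0.31 ± 0.06 (SE, 95% interval -0.44 to -0.18, limma adjusted p = 0.0176), or a difference of -19.2% from saline (interval -26.3% to -11.5%), and below 0 in 6 of 6 regions. The share of all genes below 0 in all 6 regions at that dose was 3.97%. At the high dose its mean was -0.18 ± 0.08 (-0.36 to 0.01, limma adjusted p = 0.443), below 0 in 5 of 6 regions. Without the midbrain, the only region above 0, it was -0.30, with a limma adjusted p of 0.000873. Leaving out the 1 region that went the other way favours a small p-value, so this is not a test of the high dose. Leaving out any other single region gave -0.17 to -0.12, with limma adjusted p from 0.586 to 0.684. High minus low was 0.13 ± 0.10 (-0.08 to 0.34, limma adjusted p = 0.689), from -0.20 to 0.73 over regions, so a difference between the doses was not shown. The low-dose call was lost without hippocampus (-0.27, limma adjusted p = 0.0733). It was kept without any other single region, with limma adjusted p from 0.0176 (without the hypothalamus piece, -0.35) to 0.0444 (without midbrain, -0.31). It was also lost with the scanner software's processed signals (-0.40, limma adjusted p = 0.138) and in the authors' deposited value table (-0.40, limma adjusted p = 0.141).

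Arrays were scanned on 3 days, 2 regions a day. Cortex and ventral striatum, scanned on the first day, gave Slc6a13 means of -0.27 at the high dose, with -0.38 at the low dose. Midbrain and amygdala, scanned on the second, gave 0.11 and -0.26, and hippocampus and the hypothalamus piece, scanned on the third, -0.37 and -0.29. Each day's value is the mean of 2 of the regional values given above, so its sign adds nothing to theirs. Scan day and region cannot be told apart. With 2 regions, the low-dose limma adjusted p was 0.29, 0.338 and 0.0486 on the 3 days, and the high-dose one 0.0101, 1 and 0.0383.

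**Figure D3:**
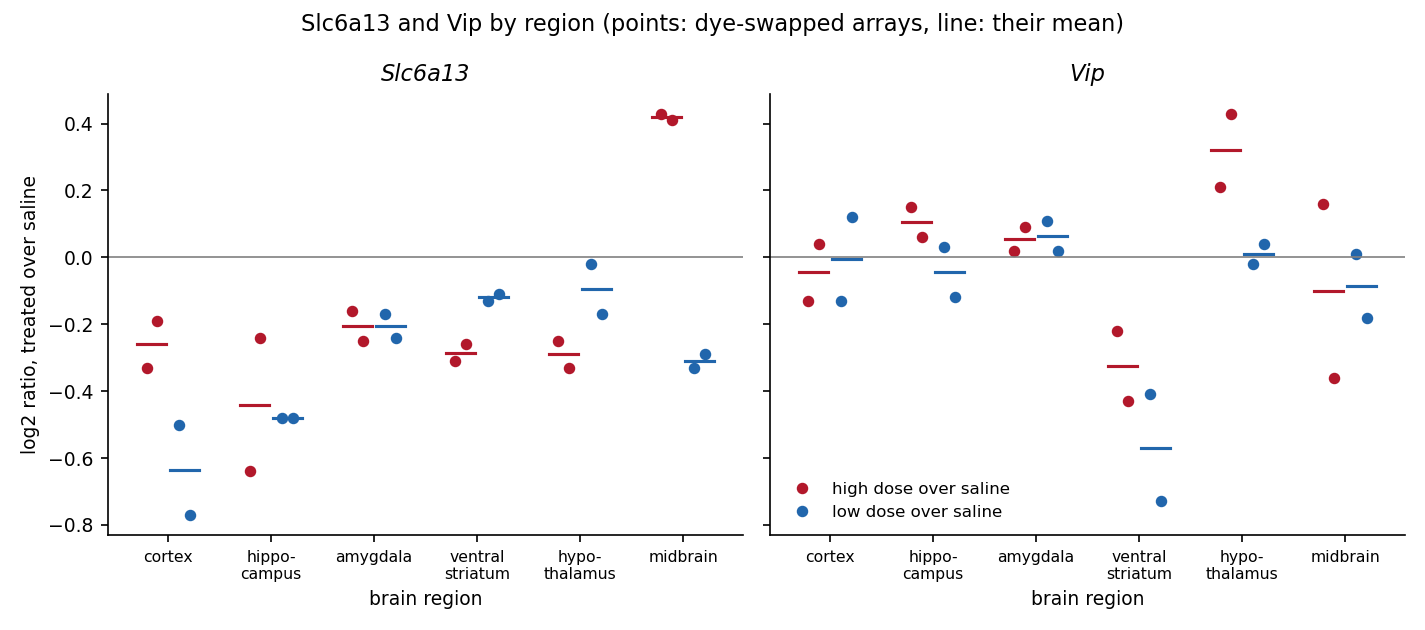
Log2 ratio of treated over saline RNA (y axis) in each region (x axis) for Slc6a13 (left) and Vip (right) at the high dose (red, left of each pair) and the low dose (blue). Points are the 2 dye-swapped arrays and lines their mean. Slc6a13 is above 0 only in high-dose midbrain (0.42), and Vip is furthest from 0 in low-dose ventral striatum (-0.57).

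Markers of the meninges moved with Slc6a13 from region to region. Over the 12 combinations of region and dose, its log2 ratio and the median log2 ratio of 15 meningeal and fibroblast markers had a Pearson correlation of 0.91 and a Spearman correlation of 0.95. The Pearson value was 0.92 over the 6 high-dose points, 0.98 over the 6 low-dose points, between 0.90 and 0.95 with any 1 point left out, and 0.91 without low-dose cortex and low-dose hippocampus, the points farthest from the median on the marker axis. Both measures come from the same arrays, and both doses were set against saline RNA of the same rats, so the points are not independent. In high-dose midbrain the marker median was 0.49, with 14 of 15 genes above 0, where Slc6a13 was 0.42. In low-dose cortex it was -0.94, with 0 of 15 above 0, and in low-dose hippocampus -0.53, with 0 of 13, where Slc6a13 was -0.64 and -0.48. The collagen gene Col1a2, for example, stood at 0.86 in high-dose midbrain and at -1.16 in low-dose cortex. Prostaglandin D synthase (Ptgds), which the leptomeninges make, stood at 0.38 and -1.24 there.

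Slc6a13 lay below the marker median in 10 of 12 combinations, in 6 of 6 at the high dose (by 0.05 to 0.33) and in 4 of 6 at the low dose. A ratio of 1 probe and a median of 15 genes need not be equal. In low-dose ventral striatum, amygdala and the hypothalamus piece the marker medians were 0.02, 0.02 and 0.07, and Slc6a13 was -0.12, -0.21 and -0.10. At the high dose in cortex and amygdala the markers stood at 0.07 and 0.09 and Slc6a13 at -0.26 and -0.20. As means over regions, 0 of 15 markers passed the test at either dose, where 1 at the high dose and 9 with the low dose had an unadjusted p under 0.05, against 11.9% and 13.1% of all genes. The list median was -0.02 at the high dose (7 of 15 above 0), while low-dose RNA gave -0.18 (0 of 15 above 0). For high minus low it was 0.22 (15 of 15 above 0, 0 past the threshold), where Slc6a13 was 0.13. None of the markers was absent: 13 of 15 were well above background in saline RNA on 24 of 24 arrays, Slc22a6 on 22 and Aldh1a2 on 18. The summed level of the 15 genes ranged from 43338 to 213865 intensity units in high-dose RNA and from 44743 to 203133 in its saline RNA, and from 38994 to 224113 in low-dose RNA and from 51875 to 233180 in its saline RNA. The part of meningeal tissue in the Slc6a13 result was not tested. Of the other marker lists, endothelial and mural genes had a Pearson correlation of 0.68 with Slc6a13 over the 12 combinations (0.90 over the high-dose and 0.47 over the low-dose points), thalamic genes -0.59, cortical glutamatergic genes -0.57, choroid plexus and ependymal genes 0.25 and astrocyte genes 0.02.

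**Figure D4:**
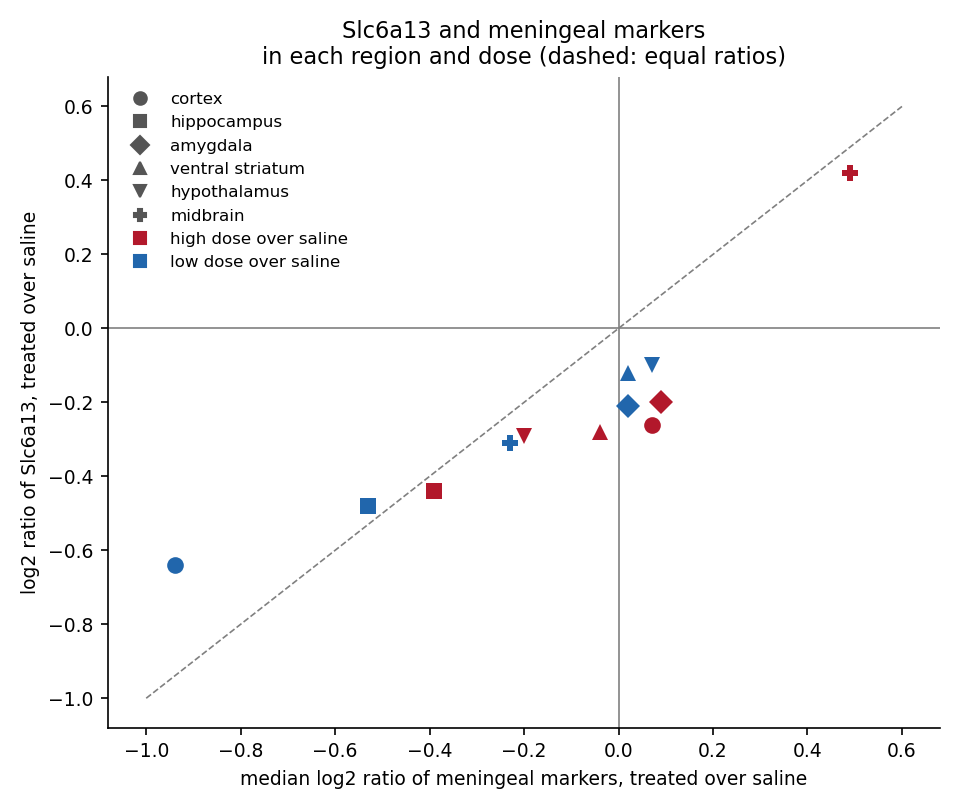
Log2 ratio of Slc6a13 (y axis) against the median log2 ratio of 15 meningeal markers (x axis), treated over saline, in each region (symbol) at the high dose (red) and the low dose (blue). The dashed line marks equal ratios. High-dose midbrain lies at 0.49 and 0.42 and low-dose cortex at -0.94 and -0.64, and 10 of 12 points lie below the dashed line.

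Among the genes of synthesis and vesicle loading, Gad1 at the high dose was the furthest from saline, without passing the test. It averaged -0.11 ± 0.05 at the high dose (-0.21 to 0.00, limma adjusted p = 0.412), with 0.01 ± 0.03 at the low dose (limma adjusted p = 0.942). Its high-dose arrays were -0.15 and -0.48 in the hypothalamus piece, -0.04 and -0.39 in amygdala, -0.19 and -0.11 in midbrain and -0.05 and -0.21 in hippocampus, against 0.17 and -0.02 in cortex and 0.17 and 0.00 in ventral striatum. With this probe both arrays were thus below saline in the hypothalamus piece, amygdala, midbrain and hippocampus, and not in cortex or ventral striatum. The other Gad1 probes also had both arrays below 0 in the hypothalamus piece and amygdala. In midbrain they gave -0.55 and 0.60 (A_44_P115461) and -0.37 and 0.21 (A_44_P243102). In hippocampus they gave -0.35 and 0.18, and -0.04 and -0.02. In cortex A_44_P243102 was at -0.04 on both arrays, so the regional split differed between probes. Probe A_44_P243102 gave -0.09 ± 0.03 and was below 0 in 6 of 6 regions (unadjusted p = 0.0066, limma adjusted p = 0.164 over all probes), where 3.7% of all genes were. Probe A_44_P115461 gave -0.07 ± 0.03, but with a dye effect of -0.26 its 2 arrays had opposite signs in 9 of 12 pairs. High minus low was -0.12 ± 0.05 for the brightest probe (-0.22 to -0.02, limma adjusted p = 0.367), -0.15 ± 0.05 for A_44_P243102 and -0.05 ± 0.04 for A_44_P115461, and none passed.

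Gad2, the terminal decarboxylase, averaged 0.05 ± 0.03 at the high dose (regions 0.00 to 0.12), with 0.05 ± 0.04 at the low dose (-0.13 to 0.21). In amygdala its arrays were 0.24 and 0.01 at the high dose and 0.21 and 0.21 at the low dose, and in hippocampus 0.08 and 0.07 at the high dose and -0.19 and -0.07 at the low dose. Slc32a1 lost 5 of 24 arrays to outlier marks of the scanner software, so its values rest on 4 high-dose regions (-0.02 ± 0.04) and 3 low-dose regions (0.02 ± 0.05). Its lowest regional value was -0.18 in the high-dose hypothalamus piece, where Gad1 was lowest too (-0.32).

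Uptake and breakdown genes other than Slc6a13 stayed close to saline. Slc6a11 averaged 0.05 ± 0.03 at the high dose, with 0.03 ± 0.03 at the low dose, with regional values between -0.03 and 0.15. Abat averaged -0.03 ± 0.03 at the high dose, with 0.05 ± 0.04 at the low dose. The highest Abat value was 0.21 in low-dose hippocampus, with arrays at 0.19 and 0.23, against 0.02 and 0.08 at the high dose. High minus low was -0.08 ± 0.03 for Abat (-0.15 to -0.01, limma adjusted p = 0.387), below 0 in 5 of 6 regions. No member measured in 6 regions was below 0 in all of them for this difference, where 3.42% of all genes were.

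No interneuron marker passed the test at either dose, and their regional values varied in sign. Pvalb averaged 0.10 ± 0.05 at the high dose (0.00 to 0.20, limma adjusted p = 0.437), with 0.05 ± 0.03 at the low dose (limma adjusted p = 0.58). It was highest in ventral striatum at both doses, with arrays at 0.48 and 0.21 at the high dose and 0.25 and 0.03 at the low dose, and lay at 0.00 and -0.19 in high-dose midbrain. Sst averaged -0.04 ± 0.05 at the high dose, with -0.08 ± 0.04 at the low dose (-0.18 to 0.01, limma adjusted p = 0.471). Its arrays in the hypothalamus piece were -0.22 and -0.44 at the high dose and -0.15 and -0.27 at the low dose, and in low-dose amygdala -0.49 and -0.11. The Sst probe is printed on 10 spots per array, whose ratios had a median SD of 0.06, below the 0.14 between the 2 arrays of a pair.

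Vip averaged 0.00 ± 0.06 at the high dose (-0.13 to 0.14, limma adjusted p = 0.996), with -0.11 ± 0.07 at the low dose (-0.25 to 0.04, limma adjusted p = 0.555). The high-dose mean hides opposite regions, while at the low dose no region was above 0.06. In ventral striatum, where its saline level was among the lowest, its arrays were -0.22 and -0.43 at the high dose and -0.41 and -0.73 at the low dose. In the hypothalamus piece they were 0.21 and 0.43 at the high dose and -0.02 and 0.04 at the low dose. High minus low was 0.11 ± 0.05 (0.00 to 0.21, limma adjusted p = 0.443). Single regions hold 1 dye pair each, so these regional values have no test. Over the 9 genes, 12 of 103 regional values were at least 0.3 from 0, and 5 of those 12 were Slc6a13.

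Of the other genes of the GABA system and its interneurons, 2 passed the test, both at the low dose. The counts at an unadjusted p under 0.05 stand beside 11.9% of all genes at the high dose, 13.1% for the low dose and 10.9% between doses. Of 19 other genes of GABA supply, uptake and breakdown, among them glutamine synthetase (Glul), 0 passed in any of the 3 comparisons, and medians were -0.01 at the high dose, while low-dose RNA gave 0.00 (limma, 1 and 2 genes at an unadjusted p under 0.05, and 0 for high minus low). Of 13 genes of inhibitory synapses, chloride transport and GABA-B receptors, 0 passed in any comparison, with medians of -0.02 at the high dose and -0.01 with the low dose, and 1, 3 and, for high minus low, 1 at an unadjusted p under 0.05. Of the GABA-A and GABA-C receptor subunits, 0 of 12 passed at the high dose (median -0.06, 0 above 0) and 0 of 14 at the low dose (median -0.02, 5 above 0), and 4 and 1 of them were at an unadjusted p under 0.05. Between doses 0 of 12 passed (3 at an unadjusted p under 0.05). Among other interneuron genes, 0 of 30 passed at the high dose (5 at an unadjusted p under 0.05), 2 of 31 at the low dose and 0 of 30 between doses (6 at an unadjusted p under 0.05). Hapln1, a link protein of the nets around parvalbumin cells, rose by 0.17 ± 0.03 at the low dose (limma adjusted p = 0.02). Reln, which encodes the matrix protein reelin, fell by 0.13 ± 0.03 (limma adjusted p = 0.0475, 5 regions). At the high dose Hapln1 stood at 0.07 ± 0.03 and Reln at -0.04 ± 0.03, neither past the threshold. Cortistatin (Cort), a somatostatin-like peptide, averaged 0.07 ± 0.02 at the high dose, with -0.09 ± 0.04 at the low dose, and high minus low was 0.16 ± 0.04, above 0 in 6 of 6 regions (limma adjusted p = 0.0935).

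Markers of other cells also differed between groups in these tissues. Of 6 blood genes, 4 were higher at the high dose and 3 were lower at the low dose. The beta-globin gene Hbb, for example, rose by 0.33 ± 0.07 at the high dose (limma adjusted p = 0.0221) and fell by 0.54 ± 0.08 at the low dose (limma adjusted p = 0.00358). Of 12 microglial genes, 0 passed at the high dose and 5 were higher at the low dose, among them C1qc (0.22 ± 0.02, limma adjusted p = 0.000339). Of 12 astrocyte genes, Sox9, a transcription factor of astrocytes, fell by 0.34 ± 0.03 at the high dose (limma adjusted p = 0.000234) and by 0.24 ± 0.04 at the low dose (limma adjusted p = 0.00343, 5 regions), while Gjb6 was higher at the high dose and S100b and Fgfr3 at the low dose. Of 12 oligodendrocyte genes, 1 was higher at the high dose (median 0.04, 10 above 0) and 2 were higher at the low dose (median 0.12, 12 above 0, 9 at an unadjusted p under 0.05), Aspa at both. The blood list had a Pearson correlation of 0.17 with Slc6a13 over the 12 combinations. The part of these cells in the members' values was not tested.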

How the data were processed

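Members and gene lists were chosen with earlier results of these data known. Per the file headers, the scanner files hold spot intensity in 2 colours (Cy5, Cy3), made by Agilent Feature Extraction 9.5.3.1 per the submitters' processing notes, with probe positions on rn3. The values deposited by the authors are log10 of treated over saline: 100% of them lay within 0.01 of that ratio of the processed signals, in both dye orientations, and column medians ran from -0.03 to 0.02.

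Mean signals were background-corrected (normexp, offset 50) and loess-normalised within arrays, giving control spots no weight, using limma 3.58.1 (R 4.3.3). Spots marked as outliers were left out. Ratios were turned to log2 treated over saline, spots of a probe averaged, dye pairs averaged, and the 6 regional values fitted against 0. A gene was its brightest probe, and tested where treated or saline RNA was well above background on both arrays of at least 3 regions. Levels used Aquantile between arrays. The named genes were all 9 members, list genes past the threshold (at most 5 per list and comparison), the 3 genes most like each member in level (SD over regions of at least 0.5), and, chosen after their values were seen, Glul, Cort, Col1a2 and Ptgds; of called markers of other cells only examples are given. The fit was tested on simulated data. Alternatives covered the signal, background offset, centring, filter, probe choice, scan day, dye term and leaving out regions or arrays. The number of arrays limits precision.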

Additional observations from a re-analysis of the deposited data

Results flagged for a closer look

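In 2 of 25 sets of regional responses, 1 region stood apart from the others by a gap that is large for the set's range (Dixon's 95% criterion). Chance gives about 1 in 20 such sets. One was Slc6a13 at the high dose, where midbrain stood at 0.42 and the other 5 regions between -0.44 and -0.20. The other was Vip at the low dose, where ventral striatum stood at -0.57 and the other 5 between -0.09 and 0.06.

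In 13 of 62 sets of saline levels, 1 channel stood apart from its region's others. Single arrays of high-dose amygdala did so for Vip (13.05), Pvalb (10.15), Slc6a13 (10.24) and 2 Gad1 probes (10.29 with A_44_P536310 and 7.72 with A_44_P243102). Other arrays of the high-dose series did so for Pvalb in ventral striatum (11.08) and in the hypothalamus piece (13.15), for Gad1 in cortex (8.91) and ventral striatum (10.43) and for Abat in hippocampus (9.81). Low-dose arrays did so for Vip in hippocampus (11.03) and for Gad2 in ventral striatum (11.69) and in the hypothalamus piece (9.32).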

How the results depend on the processing

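The low-dose call of Slc6a13 was kept in 14 of 19 alternatives, with values from -0.40 to -0.24 and limma adjusted p from 0.000856 to 0.338. Not all of these could change its value. The gene has 1 probe, well above background throughout and without outlier marks. The alternatives of filter, probe choice and outlier spots therefore left it at -0.31 and moved only its p-value, through the other genes. Scan day as a random block and arrays fitted singly with a dye term also gave -0.31 (limma adjusted p = 0.00227 and 0.000856). The fit of single arrays enters the 2 arrays of a dye pair separately, with region as a random block. The call was lost with processed signals (-0.40), with the authors' deposited table (-0.40), without hippocampus, on scan day 1 alone (-0.38) and on scan day 2 alone (-0.26). Leaving out 1 region gave -0.35 to -0.24. The count of members past the threshold at the low dose was 0 with processed signals, the deposited table, scan day 1 and scan day 2, and 0 to 1 when 1 region was left out. At the high dose it was 1 on scan day 1 and 1 on scan day 3, and 0 to 1 when 1 region was left out. In each case the gene was Slc6a13. The causes were not tested, but a scan day holds 2 regions.

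Counts over all genes at the high dose, the low dose and between doses were 264, 303 and 198 with processed signals, 139, 345 and 99 with median centring, and 276, 300 and 210 with the deposited table. Single scan days gave 302 and 139, 178 and 55, and 89 and 208 at the high and the low dose. At the low dose they were 1222 with scan day as a random block and 920 with arrays fitted singly with a dye term. Leaving out 1 region gave 293 to 413 at the high dose and 398 to 555 at the low dose.

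No member value that changed sign passed the threshold. Vip at the high dose was 0.00 with an offset of 16, -0.04 with median centring, -0.18 on scan day 1 and -0.02 on scan day 2. Slc6a13 at the high dose was 0.11 on scan day 2. On scan day 1, Gad1 was 0.08, Slc32a1 0.05, Slc6a11 -0.02 and Sst 0.09 at the high dose and Gad2 -0.03 at the low dose. On scan day 3, low-dose values were -0.03 for Gad1, -0.01 for Gad2, -0.01 for Slc6a11 and 0.00 for Pvalb. Median centring gave -0.01 for low-dose Gad1, and for high minus low -0.03 for Gad2, 0.02 for Slc32a1, 0.00 for Slc6a11, -0.01 for Pvalb and -0.02 for Sst. High minus low of Slc6a11 was -0.02 with processed signals and -0.02 with the deposited table. Slc32a1 at the low dose was -0.01 with the deposited table, -0.02 with outlier spots kept, an alternative chosen after seeing the data, and -0.02 with arrays fitted singly.
When 1 region was left out, values ran from -0.04 to 0.03 for Gad2 for high minus low, from -0.06 to 0.07 for Vip at the high dose, from -0.02 to 0.08 for Slc32a1 at the low dose, from -0.06 to 0.03 for Slc32a1 at the high dose, from -0.07 to 0.02 for Sst at the high dose, from -0.01 to 0.05 for Slc6a11 for high minus low, from -0.01 to 0.03 for Gad1 at the low dose.
The highest region of each gene's saline level was the same in 8 of 8 alternatives, the lowest in 4 to 8. High minus low within scan days was not run. High minus low was paired by region. Pairing by rat was not possible, because replicate numbers mark the dye orientations of a pair, which were averaged first. With 6 regions and few rats, the number of arrays limits precision.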
